A study of Mus musculus with 7 samples.

Results

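The genes of hepatic de novo lipogenesis were followed in livers from WT and TET1 KO mice on an HFD. A given list of 10 genes, 7 enzymes and 3 regulators, was matched by symbol and joined across livers by Ensembl identifier. All 10 were found among the 51426 genes counted, and all 10 passed the filter on low counts that left 14754 genes for testing. The enzymes were Acly, Acaca, Acacb, Fasn, Me1, Scd1 and Elovl6, and the regulators were Thrsp, Srebf1 and Mlxipl.

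The libraries came from whole livers of 3 WT and 4 TET1 KO mice, one library per mouse. All 7 mice were males labelled C57BL/6J and received the HFD for 16 weeks, which began at 8 weeks of age according to the methods of the study. The TET1 KO mice lacked TET1, a methylcytosine dioxygenase of the DNA demethylation pathway, in every tissue and not in hepatocytes alone. The knockout line was bought as heterozygotes on a mixed B6 and 129 background, and livers of mice on a normal chow were not analysed here. The methods state that serum was taken from unfasted mice when the diet ended, and the hour at which livers were taken is not given in the sources used here.

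Library sizes lay between 15005277 and 22746138 counts, and levels are given below as TMM-normalized CPM, in which counts are scaled to a common library size. The 7 hepatocyte markers tested had a summed level of 68834 to 87181 CPM in WT and of 79500 to 89116 CPM in TET1 KO livers. Most of this sum was Alb, with means of 54537 CPM in WT and 51973 CPM in TET1 KO livers, so it says little of the other markers. Tet1 itself had 1, 4 and 1 counts in WT livers and 2, 1, 4 and 1 counts in TET1 KO livers, so these counts do not tell the genotypes apart. The log2 fold change was -0.01 for Tet2 (adjusted p = 0.984) and 0.32 for Tet3 (adjusted p = 0.223) in edgeR's quasi-likelihood test. WT replicate 2 and TET1 KO replicate 1 lay farthest apart on the first principal component (-56.9 and 57.1).

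De novo lipogenesis turns surplus carbohydrate carbon into fatty acids in the cytosol of the hepatocyte. ATP citrate lyase (Acly) cleaves citrate into acetyl-CoA, the acetyl-CoA carboxylases (Acaca and Acacb) make malonyl-CoA from it, and fatty acid synthase (Fasn) builds palmitate with NADPH that malic enzyme (Me1) helps to provide. ELOVL6 then lengthens palmitate and SCD1 introduces the double bond that gives oleate and palmitoleate. In liver the transcription factors SREBP-1c, encoded by Srebf1 and driven by insulin, and ChREBP, encoded by Mlxipl and driven by sugar metabolites, raise the mRNA of these enzymes.

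Of the 10 genes, 9 had a RefSeq start site in the promoter table used here, with 13 windows in all. Scd1 had no window, so the motif counts below leave it out. Each window had 300 bases, from 250 bases before to 50 bases after a start on GRCm38.p6. The windows of Me1, Fasn and Mlxipl are printed because these genes had the largest decrease, the smallest difference among the enzymes and the largest increase of the list. They are written 5′ to 3′ on the strand of the gene. Capitals mark exact matches, on either strand, to the E box CACGTG, the CCAAT box, the GC box GGGCGG or the core of the sterol regulatory element TCACNCCAC, where N is any base.
Me1, first start, chr9:86695865-86696164, minus strand: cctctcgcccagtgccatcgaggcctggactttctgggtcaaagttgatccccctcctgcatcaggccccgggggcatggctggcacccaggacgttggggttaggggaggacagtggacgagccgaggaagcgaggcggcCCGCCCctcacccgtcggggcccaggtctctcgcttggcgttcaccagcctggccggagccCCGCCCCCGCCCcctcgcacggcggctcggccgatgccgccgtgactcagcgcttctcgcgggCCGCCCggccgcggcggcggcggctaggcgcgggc
Me1, second start, chr9:86687228-86687527, minus strand: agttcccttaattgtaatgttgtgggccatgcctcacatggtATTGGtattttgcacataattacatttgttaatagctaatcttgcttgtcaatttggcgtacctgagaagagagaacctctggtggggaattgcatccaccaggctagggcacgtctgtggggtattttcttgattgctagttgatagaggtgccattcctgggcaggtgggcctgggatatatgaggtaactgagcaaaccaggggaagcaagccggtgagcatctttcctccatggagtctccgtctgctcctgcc
Fasn, chr11:120824498-120824797, minus strand: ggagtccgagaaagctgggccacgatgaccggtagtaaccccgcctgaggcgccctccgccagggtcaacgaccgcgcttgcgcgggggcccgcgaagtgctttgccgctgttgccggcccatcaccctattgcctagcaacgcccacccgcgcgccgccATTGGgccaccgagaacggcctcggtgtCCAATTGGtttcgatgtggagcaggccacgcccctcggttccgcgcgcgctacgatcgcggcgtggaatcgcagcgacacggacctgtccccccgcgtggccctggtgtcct
Mlxipl, first start, chr5:135089640-135089939, plus strand: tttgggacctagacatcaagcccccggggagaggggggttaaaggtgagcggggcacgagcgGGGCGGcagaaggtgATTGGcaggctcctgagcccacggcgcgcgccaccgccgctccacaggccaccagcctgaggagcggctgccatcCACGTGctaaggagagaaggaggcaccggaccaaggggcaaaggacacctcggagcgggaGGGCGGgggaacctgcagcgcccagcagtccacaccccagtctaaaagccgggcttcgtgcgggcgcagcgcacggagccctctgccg
Mlxipl, second start, chr5:135106641-135106940, plus strand: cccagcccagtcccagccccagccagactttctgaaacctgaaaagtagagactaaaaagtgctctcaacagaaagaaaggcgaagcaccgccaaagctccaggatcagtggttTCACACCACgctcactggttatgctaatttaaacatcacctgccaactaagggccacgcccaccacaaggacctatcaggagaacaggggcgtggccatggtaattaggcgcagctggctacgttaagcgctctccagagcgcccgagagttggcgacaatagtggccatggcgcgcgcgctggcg

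The first Me1 window held 4 GC boxes, all on the other strand, of which 3 lay 109, 48 and 42 bases before the start and 1 lay 16 bases after it. The window of the second, downstream start of Me1 held 1 CCAAT box, 208 bases before that start, and no GC box. The Fasn window held 3 CCAAT boxes, 90, 62 and 59 bases before the start, and the last 2 of these overlapped. The first Mlxipl window held an E box 98 bases before the start, 1 CCAAT box and 2 GC boxes, whereas the second start, 17 kb downstream, had a match to the sterol regulatory element core 136 bases before it.

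Over the 13 windows the CCAAT box was present in 8 and the GC box in 5, against 37.4% and 35.7% of the 32851 windows of the whole table. The E box was present in 1 of 13 windows, against 7.15% of all windows, and the sterol element core in 1 of 13, against 1.24%. These matches describe letters in a window and no binding was measured. The counts were summed over each gene, so the starts of Me1 and Mlxipl (2 windows each) and Srebf1 (3 windows) could not be separated.

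The 10 genes together took 0.565%, 1.08% and 0.437% of all counts in WT replicates 1 to 3, and 0.600%, 0.200%, 0.251% and 0.460% in TET1 KO replicates 1 to 4. Scd1 alone held 62.0%, 73.4% and 56.4% of these counts in WT livers and 37.2%, 31.6%, 23.9% and 57.7% in TET1 KO livers. The share held by Scd1 overlapped between the genotypes only through WT replicate 3 and TET1 KO replicate 4.

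Per kb of exon, with exon lengths from GENCODE M1, the order of the mean levels in WT livers was Scd1 (915 ± 553 CPM per kb, SD, n = 3), Thrsp (362 ± 99.0), Mlxipl (67.4 ± 18.8), Srebf1 (59.0 ± 10.1), Fasn (49.6 ± 12.5), Me1 (47.7 ± 22.4), Acly (32.2 ± 16.8), Elovl6 (22.2 ± 7.57), Acaca (7.06 ± 1.76) and Acacb (2.97 ± 1.29). Neighbours in this order overlapped between WT livers from Mlxipl down to Elovl6. Scd1, the delta-9 desaturase, lay above Thrsp in every WT liver, and Acacb lay below Acaca. In TET1 KO livers the mean of Me1 was 8.68 ± 5.84 CPM per kb (SD, n = 4), under the means of Acly (19.2 ± 8.32) and Elovl6 (14.3 ± 5.69), whereas that of Mlxipl was 126 ± 36.4.

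Me1, a source of cytosolic NADPH, fell by 2.46 on the log2 scale in TET1 KO livers and was the only gene of the list with an adjusted p under 0.05. The fitted fold changes were negative for all 7 enzymes and positive for the 3 regulators, though the signs of Fasn, Thrsp and Srebf1 turned when a single liver was left out. Scd1 and Acacb had the next lowest fold changes, and Mlxipl had the highest. The median log2 fold change of the 10 genes was -0.53, against 0.01 over all genes tested, and a negative fold change was seen in 48.9% of all genes. That median was -0.24 without WT replicate 2 and -0.83 without TET1 KO replicate 1.

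The comparison was made with edgeR's quasi-likelihood test, with Benjamini-Hochberg adjustment over the 14754 genes tested. It called 1 of the 10 genes, where it called 2.02% of all genes (1.15% lower and 0.874% higher in TET1 KO livers). An unadjusted p under 0.05 was reached by 4 of the 10 genes (Me1, Mlxipl, Acacb and Scd1) and by 26.3% of all genes. The genotypes did not overlap in 2 of the 10 genes, Me1 and Mlxipl, and in 22.5% of all genes (10.8% lower and 11.7% higher), a share near that of all genes. In bulk liver RNA a smaller number of cells of one type and less RNA per cell cannot be told apart.

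**Figure D1:**
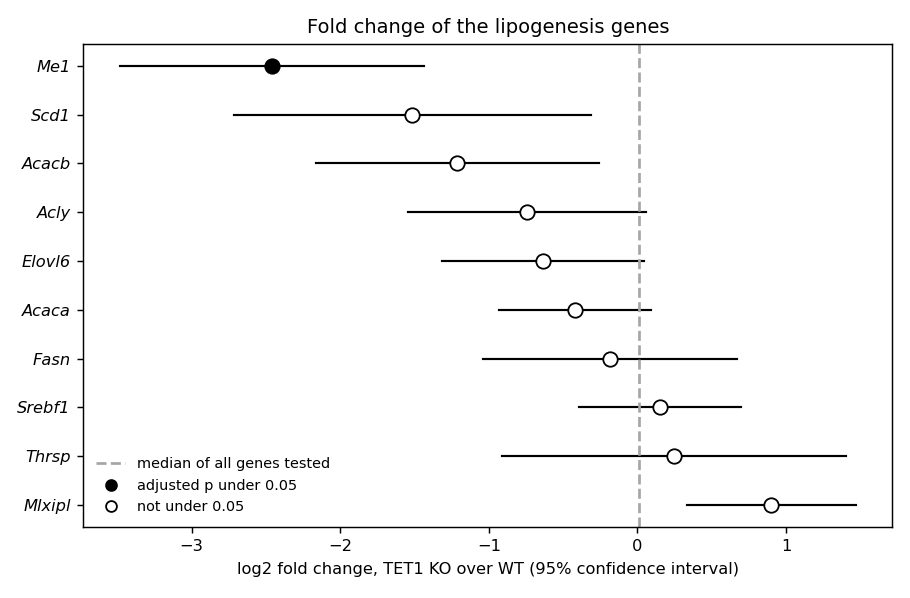
Fitted log2 fold change of TET1 KO over WT (x axis) with its 95% confidence interval for each of the 10 lipogenesis genes (y axis), filled where the adjusted p of edgeR's quasi-likelihood test was under 0.05. Me1, at -2.46, is the only filled point, the intervals of Me1, Scd1, Acacb and Mlxipl leave out 0, and the dashed line is the median of all genes tested (0.01).

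Acly makes the cytosolic acetyl-CoA on which the pathway runs. Its level was 98.7, 269.6 and 142 CPM in WT replicates 1 to 3 and 156, 71.8, 60.5 and 118 CPM in TET1 KO replicates 1 to 4. The genotypes overlapped, with WT replicate 2 above all other livers and TET1 KO replicates 2 and 3 below them. The fitted log2 difference of TET1 KO from WT was -0.75 (SE 0.36, 95% interval -1.55 to 0.05, edgeR quasi-likelihood adjusted p = 0.215), and it was -0.25 without WT replicate 2.

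Acaca encodes ACC1, the cytosolic carboxylase whose malonyl-CoA feeds fatty acid synthase. It stood at 69.6, 90.9 and 55.4 CPM in WT livers and at 78.3, 40.0, 48.0 and 49.0 CPM in TET1 KO livers. TET1 KO replicate 1 lay within the WT range and the other TET1 KO livers lay below it. On the log2 scale TET1 KO differed from WT by -0.42 (SE 0.23, 95% interval -0.93 to 0.09, edgeR quasi-likelihood adjusted p = 0.266). For Acaca the difference was -0.22 without WT replicate 2 and -0.66 without TET1 KO replicate 1.

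Acacb encodes ACC2, which sits on the outer mitochondrial membrane and whose malonyl-CoA restrains fatty acid entry through CPT1. Its level was 20.8, 42.9 and 22.2 CPM in WT livers and 11.6, 11.3, 4.19 and 22.3 CPM in TET1 KO livers. TET1 KO replicates 1 to 3 lay below every WT liver, while TET1 KO replicate 4 lay just above WT replicates 1 and 3. For Acacb the log2 fold change was -1.21 (SE 0.43, 95% interval -2.16 to -0.26, edgeR quasi-likelihood adjusted p = 0.118), -1.67 without TET1 KO replicate 4 (adjusted p = 0.0368, where 6.18% of all genes were called) and -0.80 without WT replicate 2 (adjusted p = 0.457).

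The ratio of Acacb to Acaca within a liver does not depend on library scaling. On the log2 scale it was -1.74, -1.08 and -1.32 in WT livers and -2.76, -1.83, -3.52 and -1.13 in TET1 KO livers. The mean difference of -0.93 did not pass an exact two-sided permutation test (p = 0.257, adjusted p = 0.257 over 2 ratios), for which the 35 splits of 7 mice allow no p under 0.0286.

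Fasn encodes the multifunctional synthase that assembles palmitate. Its level was 455, 625 and 385 CPM in WT livers and 861, 248, 282 and 330.4 CPM in TET1 KO livers. TET1 KO replicate 1 was above every other liver and the other TET1 KO livers were below every WT liver. For Fasn the fitted difference was -0.18 on the log2 scale (SE 0.39, 95% interval -1.04 to 0.67, edgeR quasi-likelihood adjusted p = 0.784). It was -0.77 without TET1 KO replicate 1 (adjusted p = 0.0819) and 0.03 without WT replicate 2.

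Me1 encodes the cytosolic malic enzyme, which yields NADPH while turning malate into pyruvate. Its level was 148, 259.7 and 105 CPM in WT livers and 35.2, 13.8, 16.3 and 58.9 CPM in TET1 KO livers, from 196 to 6265 counts. No TET1 KO liver reached the lowest WT liver, with TET1 KO replicates 2 and 3 lowest. The mean was 171 ± 80.0 CPM in WT (SD, n = 3) and 31.0 ± 20.9 CPM in TET1 KO livers (SD, n = 4), a fitted level 5.49-fold lower.

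Me1 fell by 2.46 on the log2 scale (SE 0.46, 95% interval -3.48 to -1.43, edgeR quasi-likelihood adjusted p = 0.0271). Without WT replicate 2, the liver with the highest Me1, the fold change was -2.03 and the adjusted p was 0.149. Leaving out TET1 KO replicate 1, 2 or 3 gave adjusted p-values of 0.0562, 0.0568 and 0.0735, and robust dispersions gave 0.0765. The call was kept in 10 of 15 alternatives, and the fold change stayed between -2.97 and -2.03 in all 15, with adjusted p-values from 0.00490 to 0.149. An opposite-strand gene, A330041J22Rik, overlaps Me1 and had 1 to 7 counts.

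Set against Fasn in the same liver, Me1 took a log2 ratio of -1.62, -1.27 and -1.88 in WT livers and of -4.61, -4.16, -4.12 and -2.49 in TET1 KO livers. The genotypes did not overlap, and TET1 KO replicate 4 was nearest to WT. The mean difference was -2.26 (exact two-sided permutation test, p = 0.0571, adjusted p = 0.114 over 2 ratios). This pair was chosen with earlier results of these data known, and its p missed 0.05 where the smallest possible p was 0.0286.

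**Figure D2:**
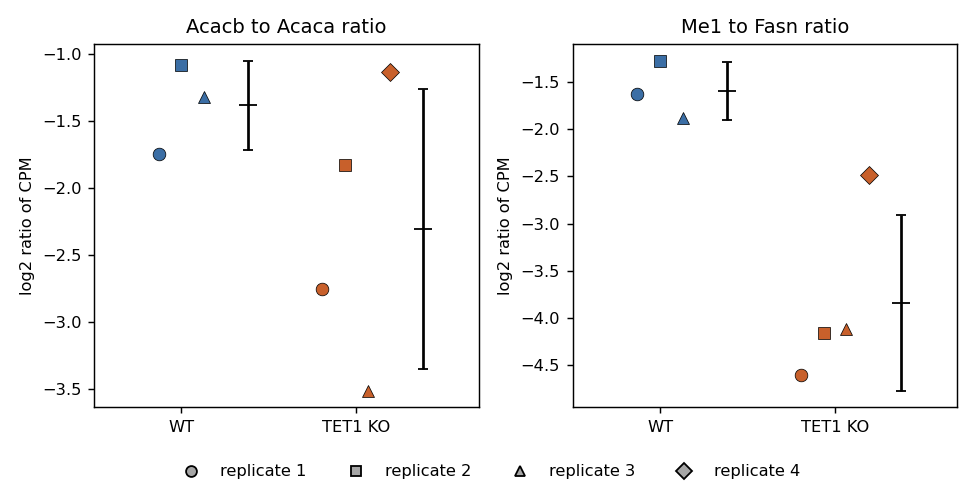
log2 ratio of CPM of Acacb to Acaca and of Me1 to Fasn (y axes) in each WT and TET1 KO liver (x axes), with symbols for replicate numbers and bars for the mean ± SD. The Acacb to Acaca ratio overlaps between genotypes, whereas for Me1 to Fasn the WT livers lie from -1.88 to -1.27 and the TET1 KO livers from -4.61 to -2.49.

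Scd1, the major liver desaturase and the most abundant mRNA of the list, had 3367, 7469 and 2442 CPM in WT livers and 2281, 668, 635 and 2616 CPM in TET1 KO livers. TET1 KO replicates 2 and 3 were the lowest livers, whereas TET1 KO replicate 4 exceeded WT replicate 3. Scd1 had a fitted log2 difference of -1.51 (SE 0.54, 95% interval -2.71 to -0.31, edgeR quasi-likelihood adjusted p = 0.121), a fitted level 2.86-fold lower. Its adjusted p was over 0.05 in all 15 alternatives, from 0.0567 to 0.474, the last without WT replicate 2, where the fold change was -0.91.

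Scd1 belongs to a family of closely related desaturases, so some reads may be split between its members in a way that is not given. Scd2 had 2.35 to 5.85 CPM in all livers. Scd3 had 0.787, 5.60 and 0.497 CPM in WT livers and at most 0.510 CPM in TET1 KO livers, so that WT replicate 2 was also the highest liver for Scd3.

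Elovl6, which extends palmitate to stearate, had 125, 180.2 and 90.9 CPM in WT livers and 127, 44.9, 78.5 and 90.1 CPM in TET1 KO livers. TET1 KO replicate 1 lay within the WT range, TET1 KO replicate 4 just under it and TET1 KO replicate 2 lowest. For Elovl6 the log2 difference was -0.63 (SE 0.31, 95% interval -1.31 to 0.04, edgeR quasi-likelihood adjusted p = 0.214). It was -0.35 without WT replicate 2 and -0.89 without TET1 KO replicate 1.

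Thrsp encodes a small nuclear and cytosolic protein that responds to thyroid hormone and carbohydrate and promotes lipogenesis. Its level was 331, 583 and 473 CPM in WT livers and 1223, 176, 277 and 516 CPM in TET1 KO livers, the widest span among TET1 KO livers of the list (6.95-fold). TET1 KO replicate 1 was the highest of the 7 livers, while TET1 KO replicates 2 and 3 were the lowest. For Thrsp the log2 difference was 0.25 (SE 0.53, 95% interval -0.91 to 1.40, edgeR quasi-likelihood adjusted p = 0.787). Among other settings, its sign turned without TET1 KO replicate 1 (-0.52) and with limma-voom (-0.11).

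Srebf1 encodes SREBP-1a and SREBP-1c, of which the latter predominates in liver. It had 344, 383 and 271 CPM in WT livers and 539, 319, 379 and 239 CPM in TET1 KO livers. The TET1 KO livers extended past the WT range on both sides, with TET1 KO replicate 1 highest and TET1 KO replicate 4 lowest. For Srebf1 the log2 difference was 0.15 (SE 0.25, 95% interval -0.39 to 0.70, edgeR quasi-likelihood adjusted p = 0.716), and -0.09 without TET1 KO replicate 1. The opposite-strand gene Rai1 overlaps Srebf1 and had 149 to 309 counts, where Srebf1 had 4534 to 9240.

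Mlxipl encodes ChREBP, the carbohydrate-responsive factor that acts with MLX. Its level was 471, 272 and 341 CPM in WT livers and 814, 523, 872 and 493 CPM in TET1 KO livers. No WT liver reached the lowest TET1 KO liver, though TET1 KO replicate 4 exceeded WT replicate 1 by little. WT livers had a mean of 362 ± 101 CPM (SD, n = 3), and TET1 KO livers had one of 675 ± 195 CPM (SD, n = 4).

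Mlxipl had a log2 fold change of 0.90 (SE 0.26, 95% interval 0.33 to 1.47, edgeR quasi-likelihood adjusted p = 0.0793), so it did not pass the threshold. It was positive in all 15 alternatives, from 0.72 to 1.13, with adjusted p-values from 0.0103 in DESeq2, which called 8.74% of all genes, to 0.326 without WT replicate 2. The adjusted p was also under 0.05 without TET1 KO replicate 4 (0.0450). WT replicate 2, the highest WT liver for each of the other 9 genes, was the lowest liver for Mlxipl.

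**Figure D3:**
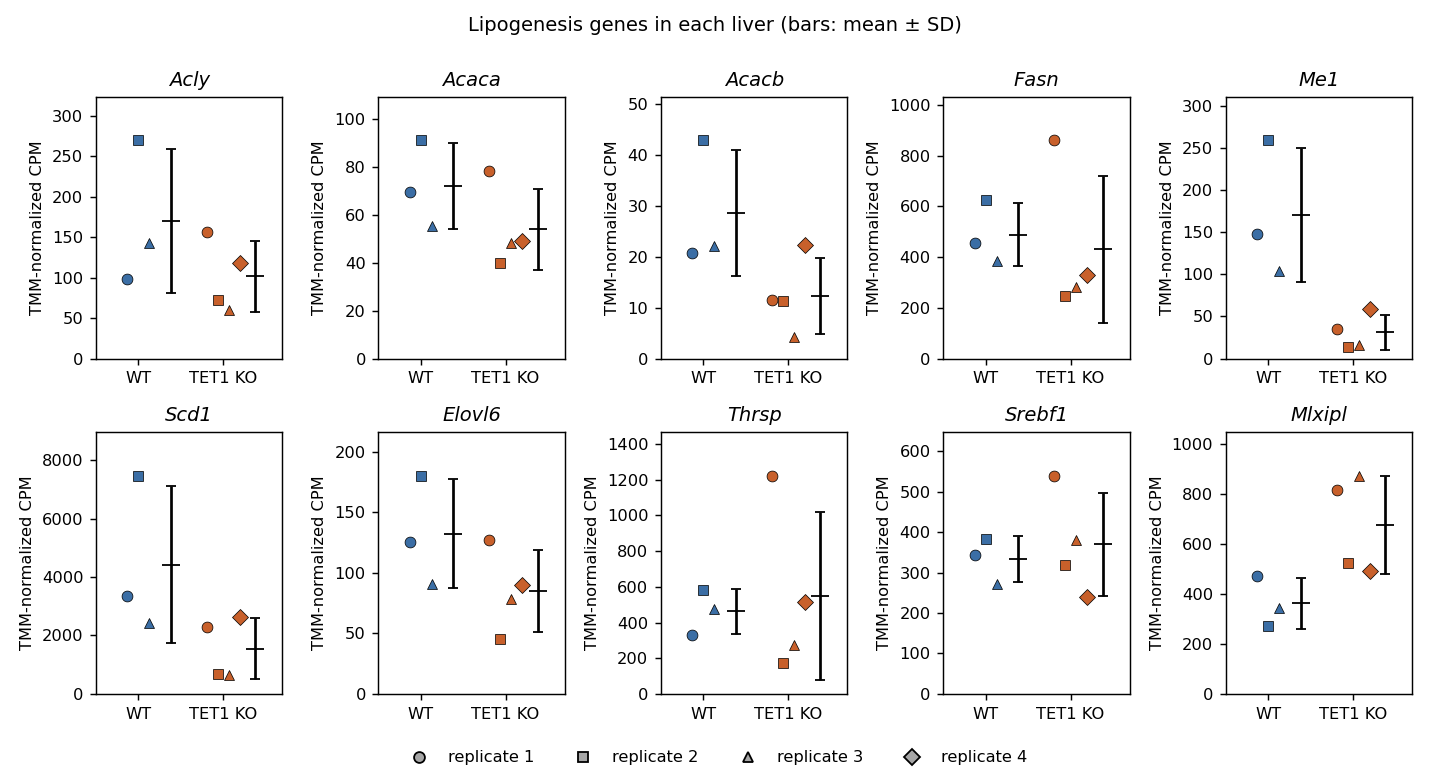
TMM-normalized CPM (y axes, linear from 0) of the 10 lipogenesis genes in each WT liver (n = 3) and TET1 KO liver (n = 4), with a symbol for each replicate number and bars for the mean ± SD. Only Me1 and Mlxipl show no overlap between the genotypes, and WT replicate 2 (blue square) is the highest WT point in 9 of 10 panels.

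Single livers moved many of the 10 genes in one direction. WT replicate 2 was the highest of the 7 livers in 6 of the 7 enzymes, Fasn being the exception. TET1 KO replicate 1 was the highest TET1 KO liver in 6 of 10 genes, and the highest of all in Fasn, Thrsp and Srebf1. The lowest liver was TET1 KO replicate 2 or 3 in all 7 enzymes, and TET1 KO replicate 4 was the highest TET1 KO liver for Acacb, Me1 and Scd1.

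**Figure D4:**
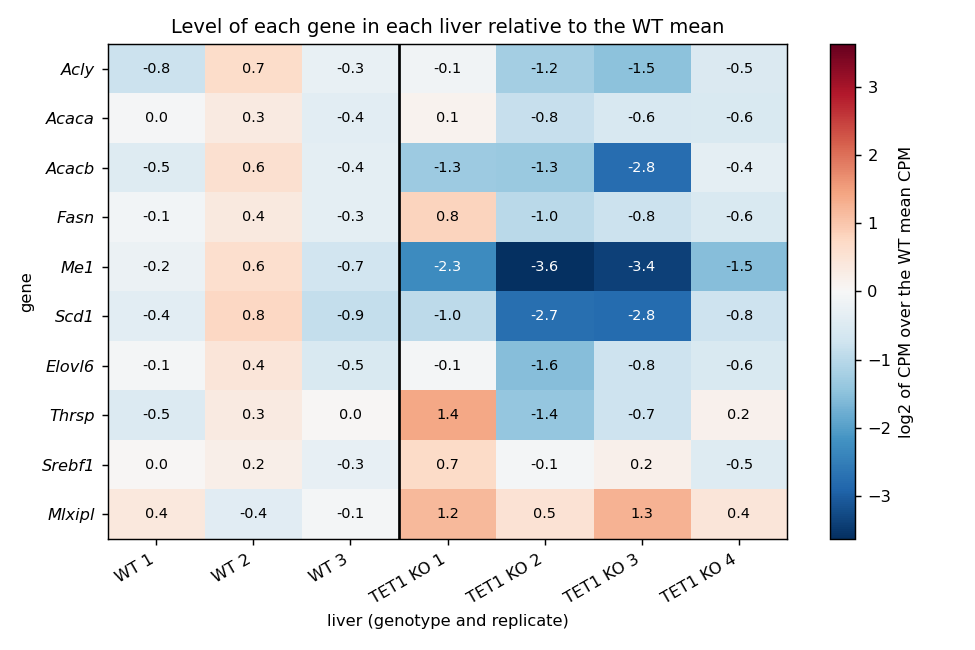
log2 of the CPM of each lipogenesis gene (y axis) in each liver (x axis) over the WT mean of that gene, red above and blue below it, with the value in each cell. Acly, Acacb, Me1, Scd1 and Elovl6 lie below 0 in all 4 TET1 KO livers, with Me1 the furthest below in each, and Mlxipl lies above 0 in all 4, whereas TET1 KO replicate 1 is red for Fasn, Thrsp and Srebf1 and blue for Acacb, Me1 and Scd1.

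Markers of other cells in these livers were measured beside the 10 genes. Of 7 adipocyte markers 3 passed the filter, and edgeR called 0 of them (1 at an unadjusted p under 0.05, 0 in DESeq2). Their summed level was 22.5 to 36.3 CPM in WT and 20.3 to 76.8 CPM in TET1 KO livers, with TET1 KO replicate 2 highest, where Fabp4 reached 52.0 CPM. The defining adipocyte genes Adipoq and Plin1 had 60 and 70 counts in TET1 KO replicate 2, 9 and 4 counts in WT replicate 2, and 0 or 1 in the other livers. Those livers were among the lowest and the highest for the lipogenesis enzymes, and the part of adipose RNA in the differences was not tested.

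The 5 cholangiocyte markers tested had a median log2 fold change of 1.22 with 0 called by edgeR, 4 at an unadjusted p under 0.05 and 2 called by DESeq2. Their summed level was 29.7 to 37.8 CPM in WT and 46.1 to 68.0 CPM in TET1 KO livers. The 8 markers of Kupffer cells and macrophages (171 to 285 CPM in WT, 126 to 284 CPM in TET1 KO livers) and the 6 of sinusoidal endothelium (157 to 172 CPM, 144 to 158 CPM) had 0 called by edgeR, with 1 and 2 at an unadjusted p under 0.05 and 0 and 1 called by DESeq2. Of 8 stellate cell markers, Rgs5 fell (log2 fold change -0.67, edgeR adjusted p = 0.0460, over 0.05 with each mouse but TET1 KO replicate 4 left out, up to 0.206, and 0.0523 with limma-voom), and edgeR called none of the other 7, where DESeq2 called 3 of the 8. None of the 7 hepatocyte markers was called by edgeR (1 at an unadjusted p under 0.05, 2 called by DESeq2). This 1 was Apoa1, higher in TET1 KO livers without overlap (log2 fold change 1.10, edgeR quasi-likelihood adjusted p = 0.0818). Apoa1 was called in 4 of 15 alternatives, among them DESeq2 (adjusted p = 1.73e-06) and limma-voom (0.0358). Of the 3 T and NK cell and 3 neutrophil markers tested, edgeR and DESeq2 called 0, and 0 had an unadjusted p under 0.05. The part of these cells in the lipogenesis results was not tested.

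The factors that handle SREBP-1c and ChREBP were examined as 14 genes, with a median log2 fold change of 0.18. Insig2, whose protein retains the SREBP escort SCAP in the endoplasmic reticulum, was the only one called by edgeR, where DESeq2 called 2. It had 198, 225 and 131 CPM in WT livers and 52.4, 66.3, 96.2 and 80.8 CPM in TET1 KO livers, with no overlap. Insig2 fell by 1.32 on the log2 scale (SE 0.22, edgeR quasi-likelihood adjusted p = 0.0196), and the adjusted p was 0.110 without WT replicate 2 and 0.0568 without TET1 KO replicate 2. Usf1, an E box binding factor, had a log2 fold change of 0.50 (adjusted p = 0.0913) and edgeR called none of the 12 further genes.

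Of 16 genes that supply acetyl-CoA from glucose, fructose and pyruvate, edgeR called 0, with 6 at an unadjusted p under 0.05 and 3 called by DESeq2. A negative fold change was seen in 13 of the 16 (median -0.36). DESeq2 called the pyruvate carboxylase gene Pcx and the pyruvate dehydrogenase subunits Dlat (-0.75, adjusted p = 0.0187) and Pdha1 (-0.56, adjusted p = 0.0226), for which edgeR's quasi-likelihood test gave -0.72 (adjusted p = 0.0753) and -0.54 (adjusted p = 0.0766).

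The 8 genes listed for cytosolic NADPH supply other than Me1 include pentose phosphate genes whose enzymes make no NADPH, such as Tkt. They had a median of -0.22, with 5 negative and 3 positive fold changes. Of these genes edgeR called 0, with 3 at an unadjusted p under 0.05. Pgd and Tkt of the pentose phosphate pathway were nearest to the threshold, with log2 fold changes of -0.56 (adjusted p = 0.0811) and -0.54 (adjusted p = 0.0902) in edgeR's quasi-likelihood test. Both were called by DESeq2 (adjusted p = 0.0319 and 0.0355). The interval of Me1 (-3.48 to -1.43) lay below the log2 fold changes of Pgd and Tkt. Pgls, also of this pathway, went the other way, with a log2 fold change of 0.35 and no overlap between genotypes (edgeR quasi-likelihood adjusted p = 0.116).

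Among 11 tested genes of fatty acid desaturation and elongation other than Scd1 and Elovl6, a list that includes reductases and a dehydratase of the elongation cycle, edgeR called 2, both lower, and DESeq2 called 4, with a median log2 fold change of -0.19. Elovl5, which elongates polyunsaturated fatty acids, had 530.1, 765 and 334 CPM in WT livers and 115, 153, 105 and 235 CPM in TET1 KO livers. The genotypes did not overlap, and Elovl5 fell by 1.84 on the log2 scale (SE 0.31, edgeR quasi-likelihood adjusted p = 0.0196). Hsd17b12, the ketoacyl-CoA reductase of the elongation cycle, fell by 0.82 on the log2 scale (SE 0.18, edgeR quasi-likelihood adjusted p = 0.0437). Without WT replicate 2 the adjusted p was 0.107 for Elovl5 and 0.199 for Hsd17b12. The call of Elovl5 was also lost without TET1 KO replicate 2 (0.0556) or 3 (0.0620), and that of Hsd17b12 without WT replicate 1 (0.0523) or TET1 KO replicates 1 (0.0738), 2 (0.102) and 3 (0.113), as well as with limma-voom (0.0546).

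Of 12 other liver targets of SREBP-1c or ChREBP, edgeR called 1, DESeq2 4 and limma-voom 0, with a median log2 fold change of -0.50. Gpam, the mitochondrial acyltransferase that starts glycerolipid synthesis, had 23.8, 74.7 and 25.8 CPM in WT livers and 11.7, 14.9, 15.9 and 12.4 CPM in TET1 KO livers. Gpam fell by 1.60 on the log2 scale (SE 0.34, edgeR quasi-likelihood adjusted p = 0.0440), and its fold change was -0.86 without WT replicate 2 (adjusted p = 0.0897). The adjusted p of Gpam was also over 0.05 without TET1 KO replicate 1, 2 or 3 (0.0819, 0.0943 and 0.0996), with robust dispersions (0.0727) and with limma-voom (0.0678). Gpd1, which makes glycerol 3-phosphate, had a log2 fold change of -0.65 (edgeR quasi-likelihood adjusted p = 0.0546). It was called by DESeq2 (adjusted p = 0.00240), with scaling to library size only (0.0368) and with no filter on low counts (0.0423).

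The 11 genes that act on ACC and malonyl-CoA had a median of -0.03, with 1 called by edgeR and 2 by DESeq2. Prkaa2, the alpha2 catalytic subunit of AMPK, the kinase that inactivates ACC, fell by 0.86 on the log2 scale (SE 0.18, edgeR quasi-likelihood adjusted p = 0.0384). All 4 TET1 KO livers lay below all 3 WT livers for Prkaa2, and the adjusted p was 0.149 without WT replicate 2. It was 0.0576 without WT replicate 3, 0.0587, 0.0926 and 0.112 without TET1 KO replicates 1 to 3, and 0.0501 with limma-voom. Stk11, which encodes the AMPK kinase LKB1, had a log2 fold change of 0.39 (adjusted p = 0.0853).

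Genes that follow feeding and the hour of the day were set beside the lipogenesis genes, since the hour of harvest is not given and the unfasted state is stated for serum alone. Of 10 feeding and fasting genes, edgeR and DESeq2 each called 1. Irs2, an insulin receptor substrate that rises in fasting, was higher in TET1 KO livers (log2 fold change 1.00, SE 0.22, edgeR quasi-likelihood adjusted p = 0.0437). Angptl4 had a log2 fold change of 0.69 (adjusted p = 0.0977). The adjusted p of Irs2 was 0.0548, 0.176 and 0.110 without WT replicates 1 to 3, 0.0782 and 0.103 without TET1 KO replicates 1 and 3, 0.0577 with scaling to library size only and 0.0536 with limma-voom.

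Of 11 tested clock genes, 3 rose in TET1 KO livers by edgeR's test, and DESeq2 called 5. Per3 rose by 1.12 on the log2 scale (SE 0.15, edgeR quasi-likelihood adjusted p = 0.00820), Tef by 0.79 (adjusted p = 0.0224) and Dbp by 0.91 (adjusted p = 0.0437). Their adjusted p-values without WT replicate 2 were 0.0604, 0.104 and 0.224. Those of Tef were 0.0756, 0.0613 and 0.0660 without WT replicate 3 and TET1 KO replicates 2 and 3. Those of Dbp were 0.0701, 0.103 and 0.113 without TET1 KO replicates 1 to 3 and 0.0543 with scaling to library size only, and the call was also lost without WT replicate 3. The summed level of the 11 genes was 517 to 624 CPM in WT and 802 to 930 CPM in TET1 KO livers, with no overlap. Tef and Dbp, both called, made up a large part of this sum. Their means were 140 and 115 CPM in WT and 242 and 216 CPM in TET1 KO livers. Of the 11 genes, 3 had a negative fold change, so the sum does not describe every clock gene. The part of feeding state or hour of harvest in the lipogenesis differences was not tested.

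**Figure D5:**
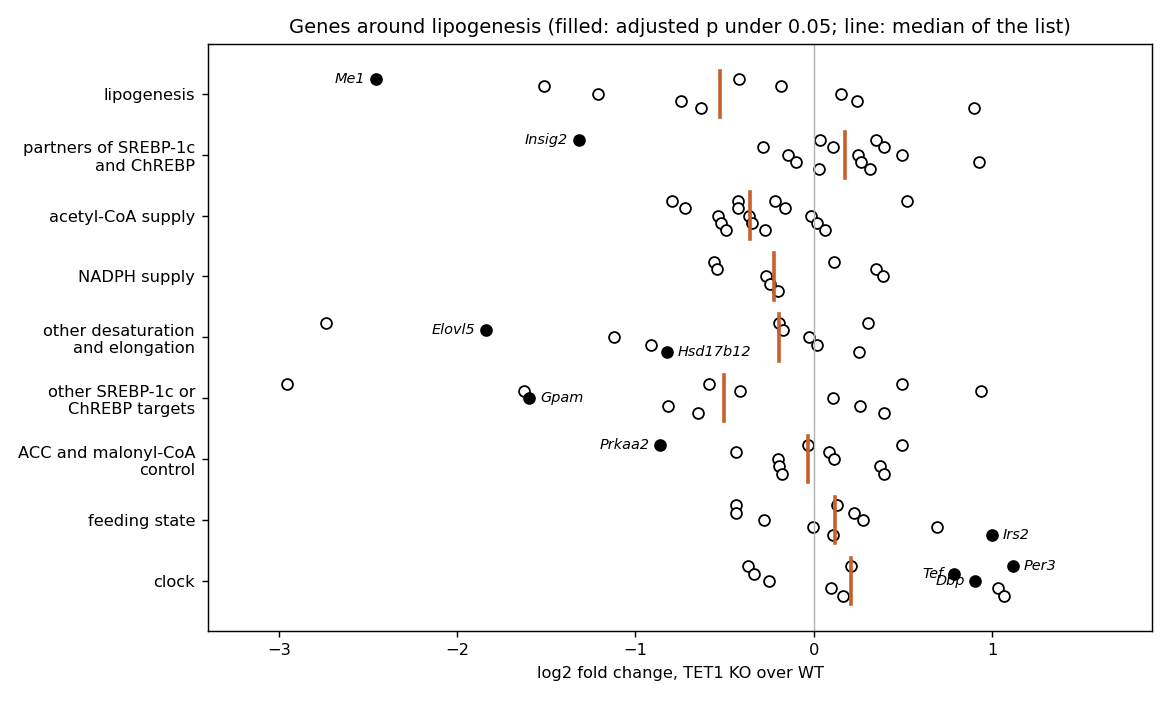
Fitted log2 fold change of TET1 KO over WT (x axis) for each tested gene of 9 lists around lipogenesis (y axis), filled and named where the adjusted p of edgeR's quasi-likelihood test was under 0.05, with a line at the median of each list. Lipogenesis has 1 filled gene, Me1, and a median of -0.53, and the 3 filled clock genes are all above 0.

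The genes with a pattern most like the 10 across the 7 mice were sought by Pearson's correlation with their mean z score of log2 CPM, as a description. The highest values were Nat8f6 (r = 0.992), Tanc1 (0.990), Gpr182 (0.978), Tmcc3 (0.972) and Gpi1 (0.970). They were picked as the highest of all other genes tested, over 7 mice, and Nat8f6 was near the floor with a mean of 0.558 CPM. Each pair of values shares its library and its depth, and none of these 5 genes was called, with log2 fold changes from -0.56 for Nat8f6 to -0.16 for Tmcc3.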

How the data were processed

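Liver RNA of 3 WT and 4 TET1 KO mice was sequenced from stranded libraries, and the labels name both poly(A) selection and rRNA depletion without saying which was used. The authors deposited 1 table of raw read counts per mouse. The submitters' processing notes name Trimmomatic 0.36, GSNAP, featureCounts 1.5.3 and the GRCm38 genome, whereas the annotation release and the strand setting are not given in the sources used here. The labels gave the genotype and the replicate number of each mouse and name no batch. Tables were joined by Ensembl identifier, since 26 symbols of 1 table had been turned into dates, and 5 repeated entries were left out. No 2 libraries of a genotype agreed within sampling noise (lowest chi-square per degree of freedom 25.0).

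Differential expression was computed with edgeR 4.0.16 in R 4.3.3 (filterByExpr, TMM, quasi-likelihood test without covariates), after the code had been tested on simulated data. The threshold for a call was a p under 0.05 after Benjamini-Hochberg adjustment, and p-values set a genotype difference against the spread between these mice. The common biological coefficient of variation was 0.208. Ratios were compared by exact permutation tests in scipy 1.17.1. The alternatives were DESeq2 1.42.0, limma 3.58.1 with voom, RLE or library-size scaling, 2 other filters on low counts, a block for the replicate number, robust dispersions, an adjusted p under 0.1, log2 CPM with a prior count of 2 for ratios, and leaving out each mouse. The genes named are the 10 genes of the list, the called genes and the 2 smallest p-values of each other pathway list, the 5 most similar genes, and Tet1, Tet2 and Tet3. The same rule chose the cell type markers examined for a liver set apart, of which Apoa1, Rgs5, Fabp4 and Oit3 are named for their values. Pcx, Pgls, Alb, Scd2, Scd3, Adipoq, Plin1 and the overlapping genes were named after their values were seen. The 10 genes, the lists and the tests were chosen with earlier results of these data known. Promoter sequences are those of RefSeq on GRCm38.p6. Figures were drawn with matplotlib 3.10.9.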

Additional observations from a re-analysis of the deposited data

Results flagged for a closer look

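In 47 values examined within the 4 TET1 KO livers (45 genes and 2 ratios), 6 had 1 liver set apart from the others, where chance alone sets apart about 1 in 20 groups. The 47 values come from the same 4 livers, and the 2 ratios are built from 4 of the genes, so they are not independent and no excess over chance is read from this number. The measure is the gap between the extreme liver and its nearest neighbour over the whole range, set against Dixon's 95% critical value for 4 samples. For Fasn it was 0.865, with TET1 KO replicate 1 high at 861 CPM, and leaving out that liver took the log2 fold change from -0.18 to -0.77. For Fabp4 it was 0.970 and for Rgs5 0.898, both at TET1 KO replicate 2. For Gpd1 it was 0.883, for Oit3 0.837 and for Tet3 0.833, all at TET1 KO replicate 4.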

How the results depend on the processing

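Over all genes, 298 were called. DESeq2 called 1315, no filter on low counts 592 and an adjusted p under 0.1 1666, and leaving out single mice gave 37 (without WT replicate 2) to 891 (without TET1 KO replicate 4). Scaling to library size only gave 419, with 25.5% of its calls higher in TET1 KO livers in place of 43.3%, and shifted the median of all genes by -0.09 on the log2 scale. Of the 10 lipogenesis genes 1 was called, Me1, against 2 in DESeq2 (8.74% of all genes), 0 with robust dispersions, 2 at an adjusted p under 0.1 (11.3% of all genes) and 0 to 3 when a mouse was left out. The median log2 fold change of the 10 stayed negative in all 15 alternatives, from -0.83 without TET1 KO replicate 1 to -0.24 without WT replicate 2. With the replicate number as a block, 1327 genes (8.99%) and 3 of the 10 (Acacb, Me1 and Mlxipl) were called, the call of Rgs5 was lost (adjusted p = 0.0548) and the sign of Thrsp turned (-0.27), but same-numbered livers deviated together with r of 0.209, -0.123 and -0.0964, so the numbers do not pair the mice. The Acacb to Acaca difference lay between -1.32 and -0.52 and the Me1 to Fasn difference between -2.71 and -2.00 when a mouse was left out, where 6 mice cannot give an exact p under 0.05. The cause of these shifts was not tested. With 3 and 4 mice the 95% interval of the log2 fold change ran from -2.71 to -0.31 for Scd1 and from -1.04 to 0.67 for Fasn, and neither difference was called.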
